A study of Mus musculus with 9 samples.

Results

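The aminoacyl-tRNA synthetases of the mouse liver were described in 3 groups of mice. One was a normal control, one was given an overdose of acetaminophen (APAP), and one the same overdose and adipose-derived mesenchymal stem cells (AMSCs). The genes were chosen by name: every protein-coding row of the expression table whose symbol is that of a tRNA synthetase. The rule found 37 genes of 54532 in the table, of which 22046 were protein coding. A name ending in 2 marked the mitochondrial set of 17 genes, and the other 20 genes formed the cytosolic set. All 20 cytosolic genes and 14 of the 17 mitochondrial genes passed the filter on low values (at least 1 FPKM on average over the 9 livers, FPKM being reads counted relative to the length of the gene and a scale factor of the library), and these 34 were among 9699 genes tested. Mars2, Pars2 and Wars2 did not pass.

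RNA of whole liver was sequenced from C57BL/6 mice, all of them male and 5 to 7 weeks old per the study's methods. The NC group was the control (3 livers, replicates 1 to 3). The APAP group received 500 mg/kg APAP into the peritoneum (3 livers, replicates 1 to 3), and the AMSC group received 500 mg/kg APAP and then, at once, 200000 AMSCs by the tail vein (3 livers, replicates 2 to 4). Both treated groups were collected at 6 h, and APAP was given after a night without food. The AMSCs came from inguinal fat of mice of the same strain and were expanded in culture, so that RNA of the injected cells cannot be told apart by sequence from that of the host. The study's methods speak of fasting for all animals ahead of APAP and do not mention NC separately. If the NC mice were not fasted, fasting and APAP cannot be told apart in the comparisons with NC.

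A tRNA synthetase joins one amino acid to the tRNAs that carry it, which is the step at which the genetic code is read, and it spends ATP to do so. The cytosol and the mitochondrion each need a full set, because mitochondria translate their own few messages with their own tRNAs. The mitochondrial enzymes are nuclear genes whose products are imported. Gars and Kars serve both compartments from a single gene. Glutamine has no mitochondrial synthetase, since mitochondria make its charged tRNA from a glutamate-charged one. Eprs charges both glutamate and proline, and Farsa and Farsb are the subunits of one phenylalanine enzyme. Several cytosolic synthetases are known targets of the integrated stress response, in which the factor Atf4 raises genes of amino acid supply while general translation is lowered.

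The livers held 13418921 to 16210930 reads on genes, and 1 read over 1 kb equalled 0.0578 to 0.0807 FPKM. Cytosolic synthetases were covered by 199 to 5281 reads per gene and liver, and mitochondrial ones by 12 to 2775. The 8 hepatocyte markers summed to 43016 to 46270 FPKM in NC, 58103 to 66681 in APAP and 53225 to 55921 in AMSC livers, without overlap between the groups. Alb was the largest part of this sum, with means of 28741, 44835 and 33180 FPKM in that order. The markers did not move together, as 6 were higher in APAP than in NC and 2 lower. Cyp2e1 was 1 of the lower ones, with means of 3408, 847 and 3619 FPKM. Sums for other cells differed between the groups too. The 7 neutrophil markers, of which 3 passed the filter, summed to 0.330 to 1.94 FPKM in NC, 7.69 to 35.3 in APAP and 4.38 to 6.17 in AMSC livers. The 5 erythroid markers summed to 134.5 to 254.0, 305.9 to 1406 and 183.2 to 311.9 FPKM in the same order. The 8 macrophage markers summed to 54.8 to 110 FPKM in NC, 81.9 to 201 in APAP and 45.5 to 73.6 in AMSC livers. The 7 endothelial markers were at 18.1 to 38.7, 23.1 to 59.1 and 19.3 to 21.0 FPKM in that order, and the 8 stromal markers at 18.7 to 36.2, 27.5 to 59.97 and 25.9 to 45.8. No marker of these lists was at 0 in the whole series, and their part in the results on synthetases was not tested. In whole tissue, fewer cells of a type and less RNA per cell cannot be told apart. The title of NC replicate 3 carries another date than those of the other livers, so fits without it hold livers of 1 date.

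Cytosolic synthetases were the more abundant set. Their NC means ran from 2.74 FPKM for Cars to 37.5 for Nars, with a median of 10.7, whereas the tested mitochondrial genes ran from 1.52 for Cars2 to 7.05 for Yars2, with a median of 3.78. Lars2 had the widest spread within a group of the 34 tested genes, with a coefficient of variation of 49.96% over the APAP livers and 47.8% over the AMSC livers.

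**Figure D1:**
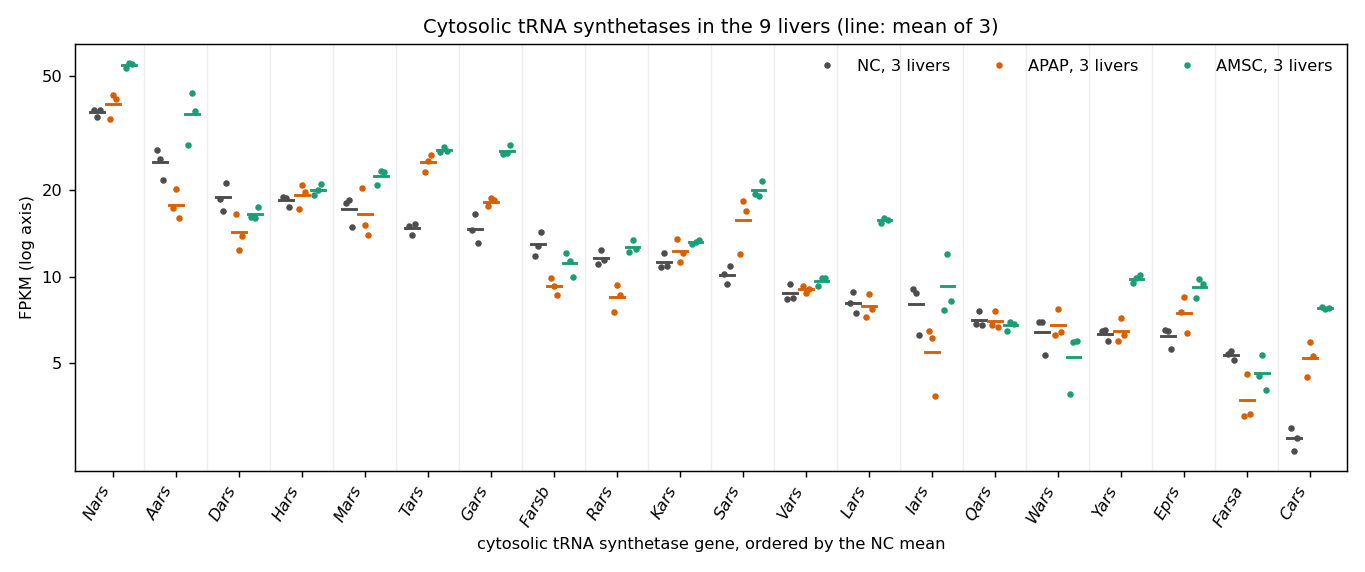
FPKM (log axis) of the 20 cytosolic tRNA synthetase genes, with 1 point per liver, coloured by group, and a line at the mean of 3. The AMSC livers sit above both other groups for Cars, Lars, Gars, Nars and Yars, and Tars is higher in both treated groups than in NC.

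**Figure D2:**
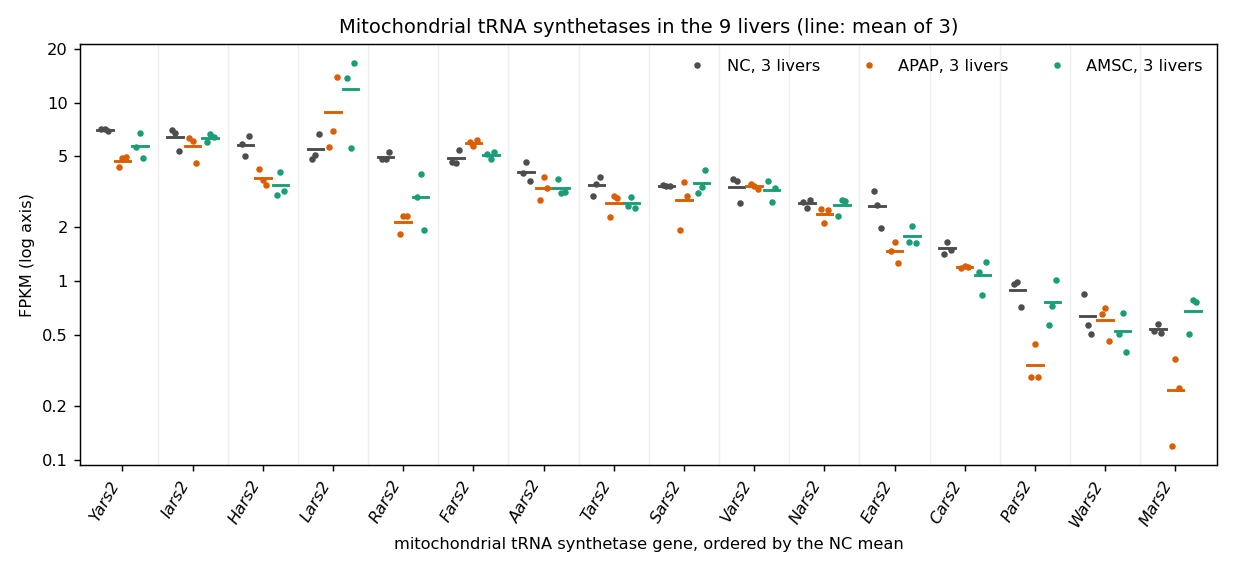
FPKM (log axis) of 16 of the 17 mitochondrial tRNA synthetase genes, drawn in the same way. NC points lie above APAP points for Yars2, Hars2, Rars2 and Ears2, and Lars2 has 1 APAP and 2 AMSC livers far above the rest.

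The first comparison asked what the overdose alone did to the synthetases, APAP against NC. Cytosolic calls were few, and their share was near that of all genes. With limma and Benjamini-Hochberg adjustment over all genes tested, 3 of 20 were called higher (Cars, Tars and Sars) and 3 lower (Aars, Farsb and Rars), at a background of 12.8% of all tested genes called higher, 13.1% called lower and 25.9% called in either direction. The median log2 fold change of the cytosolic set was 0.03, that of all tested genes was −0.0043, and 11 of 20 values were positive. No synthetase was a DEG, meaning a call whose log2 value was also 1 or more in size, where 5.09% of all tested genes were higher DEGs and 2.80% lower ones. A call is an adjusted p up to 0.05, a fold change is on the scale of log2(FPKM + 1), and values are listed in replicate order.

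Cars, which charges cysteine (chr7:143557230-143600090, minus strand, GRCm38), was at 2.99, 2.48 and 2.76 FPKM in NC, at 4.47, 5.92 and 5.32 in APAP, and at 7.84, 7.70 and 7.78 in AMSC livers. The groups did not overlap, with NC lowest and AMSC highest. APAP exceeded NC by 0.73 log2 units (SE 0.13, adjusted p = 0.00648, limma). Tars, the threonine enzyme (chr15:11382301-11399665, minus strand), measured 14.97, 14.0 and 15.2 FPKM in NC, 23.2, 25.3 and 26.6 in APAP, and 27.1, 28.3 and 27.4 in AMSC livers. Every treated liver was above every NC liver, and the treated groups lay close together. The log2 fold change of Tars in APAP was 0.73 (SE 0.11, adjusted p = 0.00386, limma). Both calls held in all 16 alternative settings, at adjusted p of up to 0.0367 for Cars and 0.0265 for Tars.

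Sars charges serine (chr3:108424865-108445209, minus strand), and its tRNAs also include the one that carries selenocysteine. It was at 10.2, 9.47 and 10.9 FPKM in NC, 12.03, 18.4 and 16.9 in APAP, and 19.5, 19.1 and 21.5 in AMSC livers. APAP replicate 1 stood close to the NC livers, and the groups did not overlap. Its log2 fold change in APAP was 0.57 (SE 0.17, adjusted p = 0.0415, limma; 0.00591 to 0.140 over the alternatives). The call was lost without any single NC liver and without APAP replicate 2 or 3.

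Aars, the alanine enzyme, has a known editing activity that removes wrongly attached serine (chr8:111033144-111057664, plus strand). It was at 27.7, 25.6 and 21.8 FPKM in NC, 17.3, 20.2 and 15.99 in APAP, and 28.8, 43.8 and 37.6 in AMSC livers. APAP was the lowest and AMSC the highest group, with no overlap between any of them. In APAP its log2 fold change was −0.47 (SE 0.14, adjusted p = 0.0475, limma; 0.0286 to 0.176 over the alternatives). That call was lost without APAP replicate 1, 2 or 3 or NC replicate 1 or 2. Farsb (−0.44, adjusted p = 0.0318, limma; 0.0172 to 0.105) and Rars, the arginine enzyme (−0.41, adjusted p = 0.0415, limma; 0.0179 to 0.155), were lower by similar amounts, and Rars lost its call without any 1 of the 6 livers, Farsb without any but APAP replicate 1. Farsa, the partner subunit of Farsb, missed the call at −0.43 (adjusted p = 0.0519, limma), and the isoleucine enzyme Iars at −0.49 (adjusted p = 0.116, limma). With the replicate number as a block, Farsa and Iars were also called (adjusted p = 0.0388 and 0.0169, limma; 0.0266 to 0.159 and 0.0169 to 0.296 over the alternatives), and the cytosolic count was 8.

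The cytosolic count of 6 in APAP against NC rested on single livers. It was 2 without NC replicate 1, NC replicate 2 or APAP replicate 3, 3 without NC replicate 3 or APAP replicate 2, and 5 without APAP replicate 1. Over all 20 genes the APAP livers lay wholly above NC for 4 (20.9% of all tested genes did so) and wholly below for 5 (22.3% of all tested genes, and 43.2% in either direction).

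The mitochondrial genes that were called in this comparison were all lower. None of the 14 tested genes was called higher by limma (0 at an unadjusted p under 0.05, and 0 with voom on the recovered reads). The 4 called lower were Rars2, Ears2, Hars2 and Yars2, where 13.1% of all tested genes were called lower and 12.8% higher. The median log2 fold change of the mitochondrial set was −0.23, with 11 of 14 values negative, beside −0.0043 for all tested genes. Over all 17 genes, the untested ones included, APAP livers lay wholly below NC for 10 and wholly above for 1, Fars2. Of the 14 tested genes, 8 lay wholly below and 1 wholly above, beside 22.3% and 20.9% of all tested genes.

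Rars2 charges the mitochondrial arginine tRNA (chr4:34614957-34660167, plus strand), and inherited loss of it causes a disorder of the developing hindbrain. Its levels were 4.82, 4.84 and 5.30 FPKM in NC, 1.83, 2.33 and 2.31 in APAP, and 2.98, 3.97 and 1.94 in AMSC livers. All APAP and AMSC livers were below all NC livers, and AMSC replicate 4 was as low as the APAP livers. Its log2 fold change in APAP, −0.93, was the most negative of any synthetase in that comparison (SE 0.12, adjusted p = 0.00186, limma), and the mean FPKM was 0.432 times that of NC. This call held in all 15 alternative settings that tested the gene, with adjusted p of up to 0.0123.

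Ears2 charges glutamate and, in mitochondria, also the glutamine tRNA that is then converted (chr7:122037213-122067263, minus strand). It was at 3.21, 2.68 and 1.98 FPKM in NC, 1.48, 1.66 and 1.27 in APAP, and 1.65, 2.05 and 1.64 in AMSC livers. NC spread widely, and the lowest NC liver was still above every APAP liver. The log2 fold change in APAP was −0.54 (SE 0.16, adjusted p = 0.0378, limma; 0.0181 to 0.138 over the alternatives), and the call was lost without NC replicate 1 or 2 or any APAP liver. Hars2, the mitochondrial histidine enzyme (chr18:36783008-36792562, plus strand), measured 5.85, 5.05 and 6.48 FPKM in NC, 4.23, 3.68 and 3.44 in APAP, and 3.03, 4.10 and 3.20 in AMSC livers. Each treated liver was below each NC liver. Its log2 fold change in APAP was −0.50 (SE 0.13, adjusted p = 0.0254, limma; 0.0171 to 0.0915 over the alternatives), a call lost without NC replicate 1 or 3 or APAP replicate 2 or 3. Yars2, for tyrosine, was the tightest of the called genes, at 6.92 to 7.14 FPKM in NC and 4.38 to 4.94 in APAP (log2 fold change −0.49, adjusted p = 0.0133, limma; 0.0112 to 0.0630), and lost its call without NC replicate 1 or 2.

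The mitochondrial count of 4 was 1 without NC replicate 1, 2 without NC replicate 2, APAP replicate 2 or APAP replicate 3, and 3 without NC replicate 3 or APAP replicate 1. With the replicate block the count was 5. A filter of at least 5 FPKM left only Fars2, Iars2, Lars2 and Yars2 of the set, and their median was 0.046.

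The second comparison asked how livers with AMSCs differed from livers with the overdose alone. Few synthetases were called, and those were cytosolic. The log2 fold change of the cytosolic genes was positive for 18 of 20, with a median of 0.31 beside 0.013 for all tested genes, and the AMSC livers lay wholly above the APAP livers for 12 of 20 (14.6% of all tested genes did so) and wholly below for 1 (12.4%), with 27.0% of all tested genes in either direction. By limma with Benjamini-Hochberg adjustment, Aars, Lars and Gars were called higher and none lower (0 lower at an unadjusted p under 0.05, and 0 lower with voom), where 1.64% of all tested genes were called higher, 2.14% lower and 3.78% in either direction. None was a DEG (0.742% of all tested genes were higher DEGs and 1.22% lower). None of the 14 mitochondrial genes was called in either direction by limma (0 at an unadjusted p under 0.05, and 0 with voom), their median was 0.06, and 8 of 14 values were positive.

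Aars had the largest log2 fold change of the synthetases between AMSC and APAP, 0.99 (SE 0.18, adjusted p = 0.0300, limma; 0.00985 to 0.139 over the alternatives). Its mean FPKM was 2.06 times that of APAP, and the call was lost without APAP replicate 1 or 3 or AMSC replicate 3 or 4. Lars charges leucine and is known as a leucine sensor of the mTORC1 growth pathway (chr18:42202350-42262122, minus strand). It was at 8.08, 8.86 and 7.47 FPKM in NC, 7.27, 8.73 and 7.74 in APAP, and 15.4, 16.1 and 15.8 in AMSC livers. NC and APAP livers overlapped, and the 3 AMSC livers were close to each other and far above both. AMSC exceeded APAP by 0.92 log2 units (SE 0.12, adjusted p = 0.00956, limma; 0.00137 to 0.0678 over the alternatives).

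Gars, the glycine enzyme of both compartments (chr6:55038007-55079500, plus strand), was at 14.5, 16.5 and 13.1 FPKM in NC, 17.6, 18.8 and 18.4 in APAP, and 26.8, 27.0 and 28.7 in AMSC livers. The order NC, APAP, AMSC held for every liver. The log2 fold change of AMSC against APAP was 0.56 (SE 0.11, adjusted p = 0.0373, limma; 0.0162 to 0.388 over the alternatives), and it was lost without any 1 of the 6 livers. Just outside the call were Yars (0.54, adjusted p = 0.0504, limma) and Rars (0.53, adjusted p = 0.0597, limma). The values that fell outside the general direction were those of Wars, the tryptophan enzyme, at −0.33 (adjusted p = 0.314, limma), and Qars, for glutamine, at −0.05 (adjusted p = 0.856, limma). Wars was the only cytosolic gene with AMSC livers wholly below APAP livers.

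Single livers decided this count as well. The 3 calls became 2 without APAP replicate 2 or AMSC replicate 2, 1 without APAP replicate 1, APAP replicate 3 or AMSC replicate 3, and 0 without AMSC replicate 4, where Lars had an adjusted p of 0.0506 (limma; range as above). The median stayed between 0.27 and 0.39 over these fits.

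The third comparison set the AMSC livers beside the NC livers. It shares the NC livers with the first comparison and the AMSC livers with the second, so the 3 sets of values are not independent of each other. Cytosolic genes called higher by limma numbered 9 of 20, and 0 were called lower (0 at an unadjusted p under 0.05, and 0 with voom), at a background of 14.1% called higher, 11.9% lower and 26.0% in either direction. They were Cars, Sars, Lars, Gars, Tars, Yars, Nars, Eprs and Mars. The median was 0.29 (0.016 for all tested genes), 15 of 20 values were positive, and AMSC livers lay wholly above NC livers for 12 of 20 (23.2% of all tested genes) and wholly below for 0 (20.3%), with 43.5% of all tested genes in either direction.

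On the scale of log2(FPKM + 1), Cars was the only DEG of the family in any comparison. In AMSC against NC, 3.92% of all tested genes were higher DEGs and 2.09% lower ones. This scale shrinks changes at low FPKM. Rars2 in APAP against NC and Aars in AMSC against APAP were also called, at mean FPKM ratios of 0.432 and 2.06. For Cars, AMSC exceeded NC by 1.23 (SE 0.10, adjusted p = 0.000136, limma), which is a mean FPKM 2.84 times as high. It was followed by Sars at 0.91 (SE 0.10, adjusted p = 0.000669, limma), Lars at 0.88 (SE 0.10, adjusted p = 0.000717, limma) and Gars at 0.86 (SE 0.11, adjusted p = 0.00126, limma). Tars was at 0.86 (adjusted p = 0.000538, limma). Cars, Sars, Lars and Tars kept the call in all 16 alternative settings, with adjusted p of up to 0.0404. Yars, Nars and Eprs, which charge tyrosine, asparagine, and glutamate with proline, were higher by 0.56, 0.53 and 0.51 (adjusted p = 0.00423, 0.00475 and 0.0122, limma). Over the alternatives these p-values reached 0.198, 0.236 and 0.244, under the replicate block, which also ended the call of Gars (0.0525). Aars missed the call at 0.52 (adjusted p = 0.0507, limma).

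Mars, the methionine enzyme, was the weakest of the 9 calls (0.37, adjusted p = 0.0487, limma; 0.0408 to 0.448 over the alternatives), and the call was lost without any one of the 6 livers. The end of its gene shares 68 bases with Ddit3 on the other strand, whose mean FPKM was 4.47 in NC, 83.7 in APAP and 105 in AMSC livers. The strand used in counting is not given in the sources used here, so reads of the shared stretch cannot be assigned with certainty. The same limit holds for Lars (438 bases shared with Rps19-ps4), Ears2 (89 with Ubfd1), Yars (30 with C77080), Wars (544 with Wdr25), Cars2 (984 with Naxd), Fars2 (920 with Nrn1) and Iars2 (2034 with Rab3gap2). Leaving out 1 liver gave 8 or 9 cytosolic calls. The genes without a call and with values near 0 or below were Wars (−0.25), Farsb (−0.20), Dars (−0.18), Farsa (−0.17) and Qars (−0.06).

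Among the mitochondrial genes, 3 of 14 were called lower in AMSC than in NC (Rars2 and Hars2 among them) and 0 higher by limma (1 higher at an unadjusted p under 0.05, Lars2, and 0 with voom). Of all tested genes, 11.9% were called lower and 14.1% higher. The median of the mitochondrial set was −0.25, and 10 of 14 values were negative. Rars2 was lower, with a log2 value of −0.63 (SE 0.18, adjusted p = 0.0377, limma; 0.0102 to 0.323 over the alternatives; lost without any NC liver or AMSC replicate 2 or 4) and Hars2 with −0.61 (SE 0.13, adjusted p = 0.0122, limma; 0.00764 to 0.181). The count of 3 was 1 without NC replicate 1, AMSC replicate 2 or AMSC replicate 4, 2 without NC replicate 2 or NC replicate 3, and 3 without AMSC replicate 3.

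**Figure D3:**
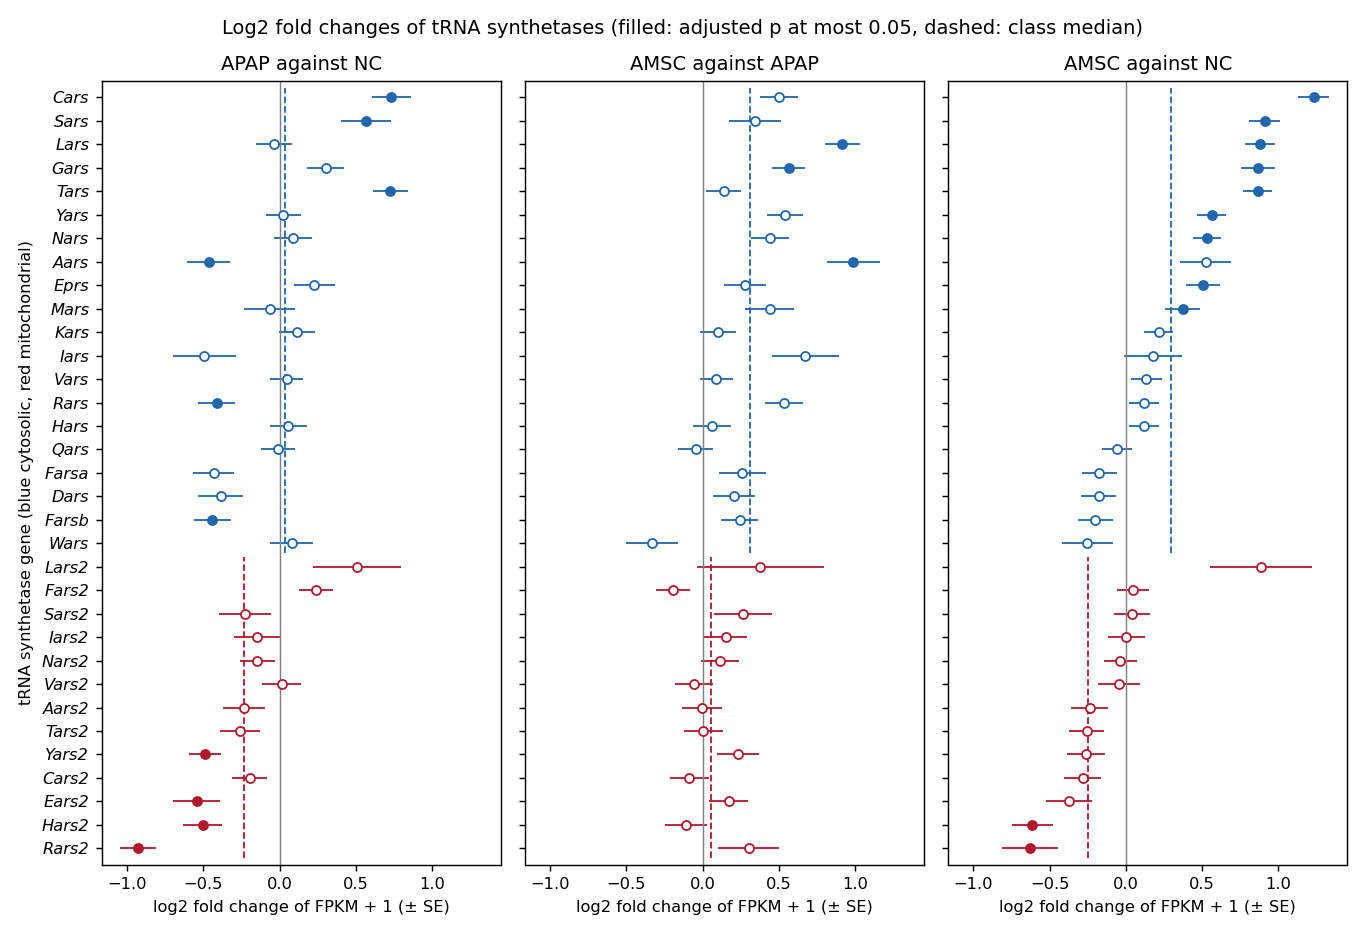
Log2 fold changes (FPKM + 1) with their SE for the tested synthetases, all but 1 mitochondrial gene, in the 3 comparisons, cytosolic in blue and mitochondrial in red, filled where the adjusted p was at most 0.05, with a dashed line at the median of each whole set. The medians of the cytosolic and mitochondrial sets are 0.03 and −0.23 in APAP against NC, 0.31 and 0.06 in AMSC against APAP, and 0.29 and −0.25 in AMSC against NC.

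The sets can be compared liver by liver, as sums, which is a description without a test. The summed level of the 20 cytosolic genes was 252 ± 7.36 FPKM in NC (SD, n = 3), 256 ± 11.2 in APAP and 341 ± 16.7 in AMSC livers. The summed level of the 16 mitochondrial genes other than Lars2 was 55.2 ± 1.43 FPKM in NC, 42.6 ± 2.03 in APAP and 45.6 ± 1.82 in AMSC livers. The cytosolic sum was thus similar in NC and APAP and higher in AMSC, whereas the mitochondrial sum without Lars2 was highest in NC. With Lars2, all 17 genes summed to 60.1 to 61.6 FPKM in NC, 47.2 to 55.1 in APAP and 53.3 to 61.5 in AMSC livers, and the NC and AMSC livers overlapped. The ratio of these sums was 4.51 to 4.66 in NC, 5.98 to 6.10 in APAP and 7.26 to 7.72 in AMSC livers, without overlap. With Lars2 included, the ratio was 4.01 to 4.26, 4.57 to 5.26 and 5.54 to 6.65, and the groups again did not overlap.

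**Figure D4:**
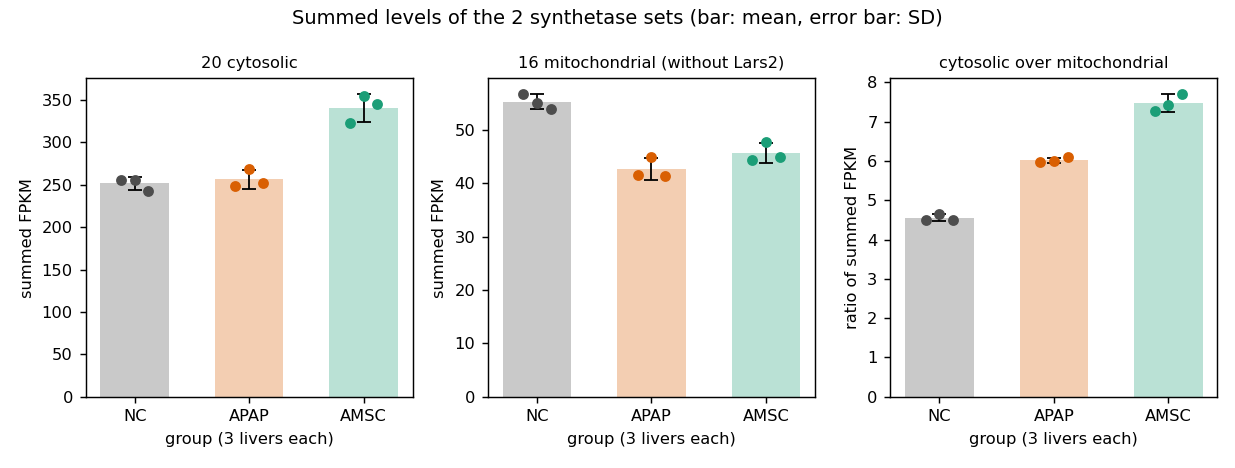
Summed FPKM of the 20 cytosolic synthetases, of the 16 mitochondrial ones without Lars2, and the ratio of these sums, with 1 point per liver, bars at the mean and error bars of 1 SD (n = 3). The cytosolic sum is highest in AMSC, the mitochondrial sum without Lars2 is highest in NC, and the ratio is 4.51 to 4.66 in NC, 5.98 to 6.10 in APAP and 7.26 to 7.72 in AMSC.

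Lars2, the mitochondrial leucine enzyme (chr9:123366927-123462666, plus strand), was set apart because its livers did not follow the groups. It was at 4.81, 5.11 and 6.68 FPKM in NC, 5.65, 6.93 and 13.8 in APAP, and 13.8, 5.58 and 16.7 in AMSC livers. APAP replicate 3 and AMSC replicates 2 and 4 were high, and AMSC replicate 3 was within the NC range. The log2 fold change in AMSC against NC was 0.88 (SE 0.33, adjusted p = 0.0877, limma). Without AMSC replicate 3 it was 1.32 (adjusted p = 0.00175, limma; 0.00175 to 0.398 over the alternatives). CT010467.1, a ribosomal RNA gene of the table, had its highest values in the same livers, at 610 FPKM in APAP replicate 3, 580 in AMSC replicate 2 and 849 in AMSC replicate 4, against 180 to 392 in the other 6. No stretch of 31 bases was shared by the annotated transcripts of Lars2 and of CT010467.1. Whether ribosomal RNA reads contribute to Lars2 was not tested, and CT010467.1 was picked after the values were seen.

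Pairs of genes that charge the same amino acid offer a closer match than the sets. There were 18 such pairs, 15 of them with both genes tested, and Fars2 stands in 2 of these, once with each subunit of the cytosolic enzyme. The cytosolic gene had the more positive log2 fold change in 10 of 15 pairs in APAP against NC, in 15 of 15 in AMSC against APAP and in 12 of 15 in AMSC against NC. The median difference within a pair was 0.23, 0.31 and 0.73 in the same order. The FPKM ratio of AMSC livers lay wholly above that of APAP livers in 4 of the 15 pairs and wholly below in 0. Over all 18 pairs it lay wholly above in 4 and wholly below in 2, Eprs with Pars2 and Mars with Mars2. Against NC, the ratio in the 15 pairs lay wholly above in 7 and below in 3 for APAP livers. For AMSC livers these counts were 10 and 1. No share over other gene pairs was counted, so these counts have no background. Of the pairs with an untested gene, Eprs with Pars2 and Wars with Wars2 went the other way in AMSC against APAP (differences −0.12 and −0.26). Mars and Mars2 differed by 0.0013 there on the scale of log2(FPKM + 1), which shrinks changes of Mars2 at under 1 FPKM. Their FPKM ratio had a mean of 89.8 in APAP and 33.8 in AMSC livers, without overlap.

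In AMSC against NC the widest pair was that of cysteine. Cars and Cars2 changed by 0.73 and −0.20 in APAP against NC and by 1.23 and −0.28 in AMSC against NC, and the ratio of their FPKM was 1.81 ± 0.30 in NC, 4.36 ± 0.55 in APAP and 7.42 ± 1.58 in AMSC livers (SD, n = 3). Threonine came next, with Tars and Tars2 at 0.73 and −0.26 in APAP and 0.86 and −0.26 in AMSC against NC. The FPKM ratio of Tars to Tars2 was 4.30 ± 0.57 in NC, 9.25 ± 0.86 in APAP and 10.2 ± 0.55 in AMSC livers. Neither Cars2 nor Tars2 was called in any comparison.

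Against NC, in the order APAP then AMSC, the serine pair Sars and Sars2 had log2 fold changes of 0.57 and −0.23, then 0.91 and 0.04. For glutamate, Eprs and Ears2 were at 0.23 and −0.54, then 0.51 and −0.37. Yars and Yars2, for tyrosine, were at 0.02 and −0.49, then 0.56 and −0.26. In these 3 pairs the cytosolic value was the higher one in both treated groups, by 0.51 to 0.88. The histidine pair Hars and Hars2 gave 0.06 and −0.50, then 0.12 and −0.61, and these genes share 198 bases on opposite strands. For asparagine, Nars and Nars2 were at 0.09 and −0.15, then 0.53 and −0.04. Rars and Rars2 were at −0.41 and −0.93, then 0.12 and −0.63.

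Other pairs were closer or ran the other way. Alanine turned over between the treated groups, with Aars and Aars2 at −0.47 and −0.23 in APAP and 0.52 and −0.24 in AMSC. For isoleucine, Iars and Iars2 were at −0.49 and −0.15, then 0.18 and 0.0027. Vars and Vars2, for valine, stayed near 0, at 0.05 and 0.01, then 0.13 and −0.04. For phenylalanine the mitochondrial gene had the more positive change, with Farsa, Farsb and Fars2 at −0.43, −0.44 and 0.24, then −0.17, −0.20 and 0.04. The leucine pair Lars and Lars2 was at −0.04 and 0.51, then 0.88 and 0.88, with the spread of Lars2 given above.

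**Figure D5:**
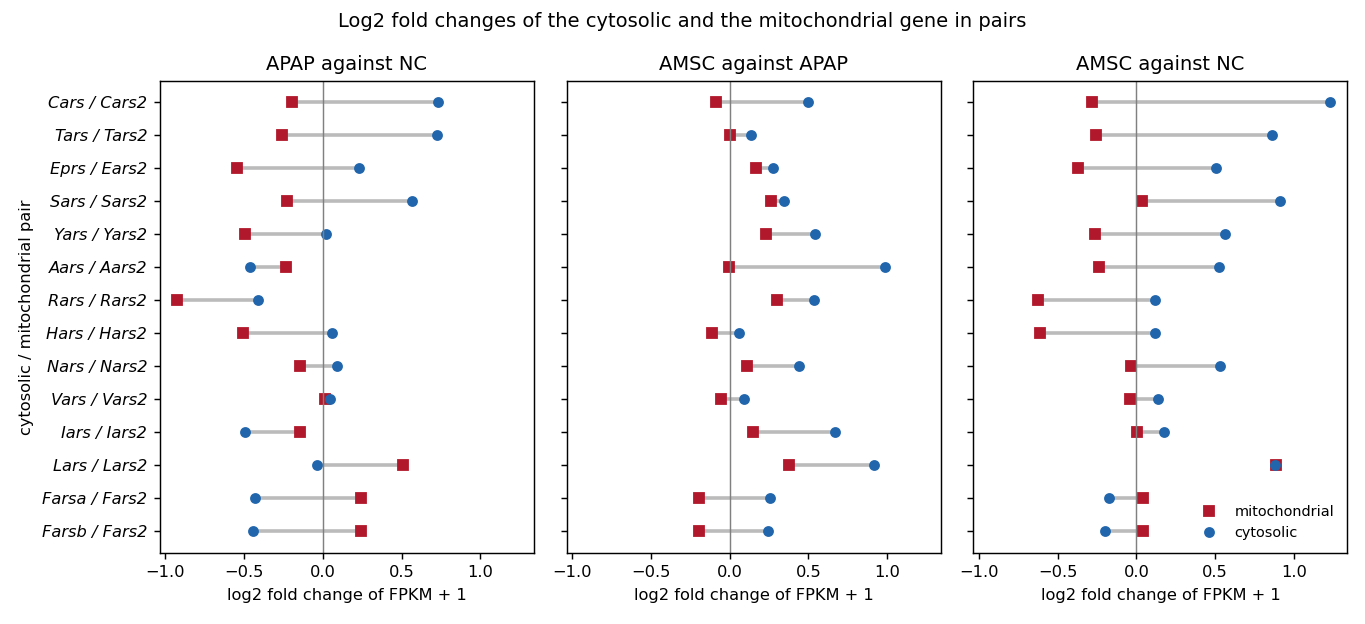
Log2 fold changes (FPKM + 1) of the cytosolic gene (blue circle) and the mitochondrial gene (red square) in 14 of the 15 pairs with both genes tested, for the 3 comparisons, with a grey line joining each pair. In AMSC against APAP the circle lies to the right of the square in every pair drawn, and in APAP against NC it lies to the left for Aars, Iars, Lars, Farsa and Farsb.

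In AMSC against APAP, the pairs differed most for alanine, with Aars at 0.99 and Aars2 at −0.0039. Cysteine followed, with Cars at 0.50 and Cars2 at −0.09. Lars and Lars2 were at 0.92 and 0.38, and Iars and Iars2 at 0.67 and 0.15. The phenylalanine genes Farsa, Farsb and Fars2 were at 0.26, 0.24 and −0.19, those for asparagine, Nars and Nars2, at 0.44 and 0.11, and those for tyrosine, Yars and Yars2, at 0.54 and 0.23. In the other 7 pairs the cytosolic value was higher by 0.08 to 0.23.

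The 3 mitochondrial genes under the filter had few reads and were not tested. Pars2, for proline, was at 0.969, 0.991 and 0.714 FPKM in NC, 0.289, 0.443 and 0.289 in APAP, and 0.570, 0.721 and 1.01 in AMSC livers. Mars2, for methionine, was at 0.514 to 0.573 FPKM in NC, 0.119 to 0.364 in APAP and 0.507 to 0.783 in AMSC livers. For both genes the APAP livers were below all others. Wars2, for tryptophan, overlapped in all groups, at 0.508 to 0.847, 0.463 to 0.706 and 0.403 to 0.660 FPKM.

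A group of 8 cytosolic synthetases is held with scaffold proteins in the multisynthetase complex, which is thought to pass charged tRNAs to the ribosome. Of these 8 (Dars, Eprs, Iars, Kars, Lars, Mars, Qars and Rars), limma called 1 lower in APAP against NC, 1 higher in AMSC against APAP and 3 higher in AMSC against NC, with medians of −0.05, 0.36 and 0.20. Among all tested genes, 13.1% were called lower in the first comparison, 1.64% higher in the second and 14.1% higher in the third, so the first count is near the background. Of the 12 other cytosolic genes, 3 were called higher and 2 lower, then 2 and 6 higher. The scaffold genes Aimp1, Aimp2 and Eef1e1 gave 1 call, Aimp2 lower in APAP against NC (−0.50, adjusted p = 0.0256, limma), from 4.87 ± 0.41 FPKM in NC to 3.16 ± 0.45 in APAP livers (SD, n = 3).

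Mitochondrial genes that act after charging were also followed. Of 10 initiation, elongation and release factors of mitochondrial translation, 6 were called lower and 0 higher in APAP against NC, and 6 lower and 0 higher in AMSC against NC (13.1% and 11.9% of all tested genes were called lower), with medians of −0.44 and −0.39, and none was called in AMSC against APAP (limma). The initiation factor Mtif3 was at 4.03 ± 0.33 FPKM in NC, 1.98 ± 0.15 in APAP and 2.59 ± 0.22 in AMSC livers (log2 fold change −0.75 in APAP against NC, adjusted p = 0.00339, limma). The release factor Mtrf1 had 3.90 ± 0.18, 2.01 ± 0.15 and 2.36 ± 0.33 FPKM (−0.70, adjusted p = 0.0037, limma). Of the 4 genes that finish the mitochondrial glutamine and initiator methionine tRNAs, 2 were called lower in APAP and 1 in AMSC, both against NC (13.1% and 11.9% of all tested genes).

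Genes of the integrated stress response were measured beside the synthetases, 28 in the list and 20 of them past the filter. Of these 20, 4 (Chac1, Mthfd2, Psat1 and Slc7a5) were under 1 FPKM in NC and passed through the treated livers, so they had to differ from NC. Of the other 16, limma with Benjamini-Hochberg adjustment called 11 higher in APAP against NC, 2 in AMSC against APAP and 15 in AMSC against NC, and 0 lower, beside 12.8%, 1.64% and 14.1% of all tested genes called higher. No gene of the list was a synthetase. Ddit3, the stress factor CHOP, was at 4.47 ± 0.30 FPKM in NC, 83.7 ± 51.5 in APAP and 105 ± 14.5 in AMSC livers. Chac1, which breaks down glutathione, was at 0.247 to 0.439 FPKM in NC, 6.38 to 26.03 in APAP and 51.8 to 71.8 in AMSC livers. Of all 20, those called higher in AMSC against APAP were Ddit4, an inhibitor of mTORC1 (2.43, adjusted p = 0.00115, limma), Mthfd2, an enzyme of mitochondrial folate metabolism (1.11, adjusted p = 0.0434, limma), and Gpt2, the mitochondrial alanine aminotransferase (0.997, adjusted p = 0.0373, limma). Ddit4 was at 5.72 ± 1.51 FPKM in NC, 8.79 ± 1.62 in APAP and 51.9 ± 8.39 in AMSC livers.

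Promoters of the synthetases were searched for TGATGCAA, the letters of the C/EBP-ATF response element to which factors of this response are known to bind, and for its reverse complement TTGCATCA. The windows were RefSeq promoters on GRCm38.p6, 250 bases before to 50 bases after each start. Of the 37 genes, 27 had a window, 13 cytosolic and 14 mitochondrial. The letters were present in 4 cytosolic genes (Aars, Iars, Tars and Yars) and 0 mitochondrial ones, and in 0.895% of all 32851 windows. With any base at the sixth position (TGATGNAA, which includes the first motif), Gars was added along with another match in Aars, and 3.97% of all windows held it. The matches are shown for Gars, Iars, Tars and Yars, each with 11 bases on either side, on the strand of the gene, with the match in capitals.
Gars, chr6:55037960-55037989: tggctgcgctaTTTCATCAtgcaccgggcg
Iars, chr13:49682126-49682155: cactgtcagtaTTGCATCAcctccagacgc
Tars, chr15:11399655-11399684: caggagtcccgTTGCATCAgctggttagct
Yars, chr4:129189895-129189924: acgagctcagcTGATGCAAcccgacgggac

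The matches began at −30 in Gars, 8 in Iars, −15 in Tars and 4 in Yars, counted from the first transcribed base as 1. These are matches of letters, not sites of binding. Of the 5 genes, Gars, Tars and Yars were called higher in AMSC against NC, whereas Iars was at 0.18 (adjusted p = 0.529, limma) and Aars at 0.52. Windows for Cars, Lars and Nars were not used here.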

How the data were processed

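RNA of 9 livers was sequenced from mRNA libraries, and the authors deposited one table of FPKM per gene and library, with gene lengths. The aligner, the counting program and its strand setting are not given in the sources used here. Coordinates are on GRCm38, since 98.3% of 54409 gene identifiers shared with GENCODE vM21 had the same start and end. FPKM times gene length, divided by the value of 1 read, was whole within 0.1 for 100% of values above 0, which gave the recovered reads. The value of 1 read over 1 kb did not simply follow the reads on genes. It was 0.0769 FPKM in AMSC replicate 3, with 13418921 reads, and 0.0807 in APAP replicate 2, with 13640978. How the authors scaled the libraries is not given in the sources used here.

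Values entered limma 3.58.1 (lmFit, eBayes with trend; R 4.3.3) as log2(FPKM + 1), for the 9699 genes with a mean of 1 FPKM or more, each fit holding 2 groups, and p-values were adjusted over all of them (Benjamini-Hochberg). The fits were also run on simulated data, for APAP against NC only. The simulation gave every gene the same spread between replicates and planted changes larger than most of those called here. It therefore says little about these calls. Alternatives were another pseudocount, other filters and scalings, all 9 libraries in one fit, a replicate block, voom on the recovered reads, and each library left out. Rescaling by median of ratios gave the same numbers of called genes as the main fits (2514, 367 and 2521), so a call held under it adds little. Deviations of same-numbered APAP and NC livers from their group means correlated at 0.213, 0.160 and 0.378. Livers with different numbers were not compared, so these values cannot show that the numbers pair the groups, and no label pairs them. The number of NC replicate 3 is that of its description, as its title has another number, and the block rests on it. The study's methods call the replicates biological, and the p-values measure the spread between these samples. Members and lists were chosen with earlier results of these data known. Described in full are each DEG and, per comparison, the called genes with the largest fold changes, up to 4 cytosolic and 3 mitochondrial. Python 3.11.15 (pandas 2.3.3, numpy 2.4.6) made the summaries, and matplotlib 3.10.9 made the plots. One mitochondrial gene, which the counts include, and the promoter sequence of 1 gene are not reported here.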

Additional observations from a re-analysis of the deposited data

How the results depend on the processing

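Directions of the called genes did not turn under any alternative run: for single genes called in some setting, 453 alternative values kept the side of the threshold, 85 lost a call and 29 gained one. Of 66 uncalled results, 21 changed sign under some setting, none larger than 0.38 in size. In APAP against NC, with all genes above 0 tested, 2 cytosolic genes were called. The filter of at least 5 FPKM left only Fars2, Iars2, Lars2 and Yars2 of the mitochondrial genes, here and in the other comparisons. With it, 1 mitochondrial gene was called, the mitochondrial median was 0.046 and the difference of the medians 0.00012. With voom the mitochondrial median was −0.33. In AMSC against APAP, 7 cytosolic genes were called with all 9 libraries in one fit and 5 with protein-coding genes only, and the mitochondrial median was 0.19 at 5 FPKM. In AMSC against NC, 0 mitochondrial genes were called with all genes above 0 or at 5 FPKM, their median was −0.10 and 0.024, and the difference of the medians 0.40 and 0.35. Synthetase DEGs were counted only in the main fits on log2(FPKM + 1) with all 6 livers. There all counts were 0, except 1 cytosolic gene in AMSC against NC. They were not counted under the alternatives, such as another pseudocount or voom.

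The replicate block gave 8 cytosolic and 5 mitochondrial calls in APAP against NC, and pairing by number was not shown in any comparison. For AMSC replicates 2 and 3 the correlations were −0.104 and −0.293 with APAP, and −0.199 and −0.309 with NC. The block gave 0 cytosolic calls in AMSC against APAP, and 4 cytosolic and 0 mitochondrial in AMSC against NC. It rested there on the 4 livers of each comparison that share a number.

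Leaving out 1 library gave 2 to 5 cytosolic and 1 to 3 mitochondrial calls in APAP against NC, 0 to 2 and 0 in AMSC against APAP, and 8 to 9 and 1 to 3 in AMSC against NC. Leaving out Lars2, and the difference of medians, were chosen after seeing the data, and Lars2 moved no count of the fits with all 6 livers (without AMSC replicate 3 it was 1 of the 3 mitochondrial calls in AMSC against NC). The cause of these changes was not tested.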

Other observations

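Enzymes that modify cytosolic tRNAs were measured beside the synthetases. Of 22 tested, limma called 5 lower and 0 higher in APAP against NC (median log2 fold change −0.15), 1 higher in AMSC against APAP and 1 lower in AMSC against NC, where 13.1%, 1.64% and 11.9% of all tested genes were called in these directions. Mettl1, the tRNA guanosine methyltransferase, was the gene called in all 3, at −1.12 (adjusted p = 0.000653, limma), 0.64 (adjusted p = 0.0466, limma) and −0.48 (adjusted p = 0.0273, limma). Of 19 tested genes of mitochondrial tRNA maturation, 3 were called lower against NC in APAP and 3 in AMSC, with 0 higher, which is near the share of all genes (13.1% and 11.9%). In AMSC against APAP, 16 of these 19 were positive (median 0.22), 0 were called, and 8 lay wholly above. Of the 22 modification enzymes, 19 were positive there (median 0.22) and 10 lay wholly above, beside 14.6% of all tested genes. Positive values in that comparison were thus not particular to cytosolic synthetases. Of 7 tested genes of tRNA export and delivery, the elongation factors Eef1a1 and Eef2 were called higher in APAP (0.51 and 0.68) and in AMSC (0.39 and 0.65) against NC. Of all tested genes, 12.8% and 14.1% were called higher in these comparisons.

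Wars is known as the synthetase that interferon gamma induces. It was at 6.95, 6.94 and 5.36 FPKM in NC, 6.29, 7.75 and 6.43 in APAP, and 3.93, 5.91 and 5.96 in AMSC livers, and was called in no comparison. Of 15 genes induced by interferon gamma, 9 were called lower and 0 higher in AMSC against APAP (median −0.79), where 2.14% of all tested genes were called lower, among them Cxcl9 (−1.88, adjusted p = 0.00643, limma) and Gbp3 (−1.24, adjusted p = 0.00473, limma). In APAP against NC 5 were called higher and 4 lower, at 12.8% and 13.1% of all tested genes. Gbp2 was under 1 FPKM on average in NC and in AMSC, and passed the filter through the APAP livers. Of the other 14 genes, 8 were called lower in AMSC against APAP (median −0.77). In APAP against NC 4 of these 14 were called higher and 4 lower.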
